A study of Mus musculus with 15 samples.

Results

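The genes described here set 1 cell line apart from 4 others: 58 genes of 13142 measured, in which the line with the scrambled hairpin stood alone. They were chosen from measured values. Levels are in CPM, each read count scaled to a fixed total per library, summed over the transcripts of a gene. A gene was taken if its highest line mean was at least 5 CPM, if the 3 scrambled-hairpin libraries lay all above or all below the other 12 libraries, and if their mean differed at least 1.5-fold from the mean of each other line. In 43 of the 58 genes (0.327% of all genes) the scrambled line was lowest, and in 15 (0.114%) it was highest. Every difference between that line and another is therefore a description of how the genes were picked, and no test of it is read as a result.

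The data were 15 libraries of messenger RNA from 6DT1 cells, derived from a mouse mammary tumour. They were kept as a monolayer without treatment and harvested 24 h after plating at 70% confluence. The study asked what depletion or excess of Smarcd1, which belongs to the chromatin remodelling complex BAF, does to gene expression. There were 5 lines with 3 libraries each. The line shScr carried a scrambled hairpin and had the genotype label wildtype, KD6 and KD4 each carried a hairpin against Smarcd1, OE overexpressed Smarcd1 from a vector, and EV carried the empty vector and was also labelled wildtype. The 3 hairpin lines were kept in puromycin and the 2 vector lines in blasticidin, so hairpin, drug and vector differ together between these 2 kinds of line. Each line is 1 transduced population. Its 3 libraries came from separate passages, so a p value here measures the spread between passages of a line and not between lines made anew. The exception is the comparison of KD, with KD6 and KD4 as 1 group, against shScr. There the spread also holds the difference between KD6 and KD4.

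A scrambled hairpin is the usual control for RNA interference: the cell processes it like any other hairpin and loads it into Argonaute, but its sequence is meant to match no transcript. The effect of a targeting hairpin is then read as its line over the scrambled line, so a gene in which the scrambled line alone departs appears as a difference in every hairpin line set against it. The genes found here encode, among others, desmosome and membrane skeleton proteins that hold epithelial cells together and shape them, matrix proteases and secreted proteins, a Notch ligand regulator and a Notch-modifying enzyme, and a cytokine receptor chain.

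The deposited CPM of the transcript table summed to between 854736 and 902115 per library. Read totals are not known, so no counting interval is given. Smarcd1 sums averaged 15.3 ± 1.55 CPM in shScr, against 13.2 ± 1.052 in KD6, 8.10 ± 0.795 in KD4, 37.3 ± 0.962 in OE and 29.4 ± 2.74 in EV (SD, n = 3 each, as are all such values below). The tested differences were a log2 difference of -1.59 for the KD hairpin lines minus the vector lines (adjusted p = 9.52e-08), 0.64 for KD6 minus KD4 (adjusted p = 0.00194) and 0.34 for OE minus EV (adjusted p = 0.785), all in limma fits. KD against shScr, in the gene table, did not pass for Smarcd1 (log2 difference -0.39, adjusted p = 0.268). In that fit KD6 and KD4 were 1 group, so their own difference in Smarcd1 counted as spread. shScr minus the mean of the other 4 lines was -0.28 (adjusted p = 0.0305), which no longer passed without shScr replicate 1 or 3 (adjusted p = 0.177 and 0.122). The 3 hairpin lines thus all had lower Smarcd1 means than the 2 vector lines, shScr included. On the first principal component of log2 levels, which held 29.0% of the variance, the 9 hairpin libraries lay between 0.537 and 21.0 and the 6 vector libraries between -28.4 and -7.42. Of the luminal epithelial markers looked for, 3 of 14 were listed, and all 3 were keratins (Krt8, Krt18 and Krt19). Of the mesenchymal markers 8 of 11 were listed, with Vim at 1614 to 2156 CPM. Among the immune, fibroblast, endothelial and adipocyte markers, 2 of 12, 1 of 9, 1 of 7 and 1 of 7 were listed, and Ptprc, Col1a1, Pecam1 and Adipoq were not.

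The same thresholds were then applied with each of the other lines as the one that stands apart. KD4 alone was apart in 100 genes (0.761%), 58 with KD4 lowest and 42 with KD4 highest. KD6 alone was apart in 19 genes (0.145%), EV alone in 10 (0.0761%) and OE alone in none (0%). The scrambled line thus had fewer such genes than KD4 and more than the others. It was lowest in 43 of its 58 genes, as KD6 was in 11 of 19, KD4 in 58 of 100 and EV in 4 of 10. Of the 10689 genes with at least 5 CPM, the 3 shScr libraries lay outside the other 12 in 563 (5.27%), above them in 173 and below them in 390. For KD4 this was so in 7.81% of genes, and for KD6, OE and EV in 1.91%, 0.917% and 2.91%.

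**Figure D1:**
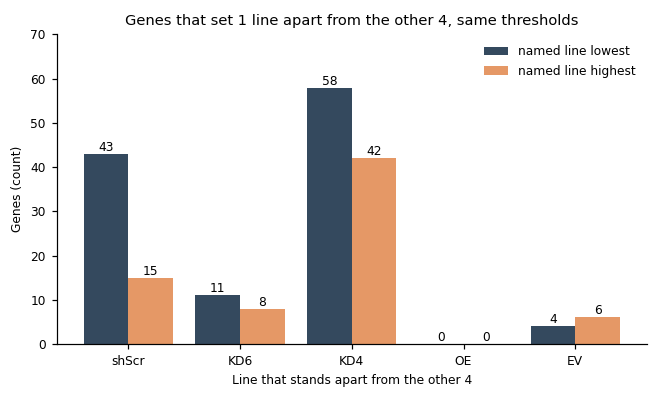
Number of genes (linear axis from 0) in which 1 line stood apart from the other 4 under the same thresholds, with genes where that line was lowest and genes where it was highest as separate bars. shScr has 43 lowest and 15 highest, KD4 has 58 and 42, and OE has none.

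Desmosomes are the spot welds between epithelial cells, and 2 of their membrane proteins were among the genes. Perp (ENSMUSG00000019851), a tetraspan protein of desmosomes and a p53 target, had 39.4, 38.5 and 32.8 CPM in shScr, against 93.1, 84.9 and 82.2 CPM in KD6, 95.8, 101 and 110.3 CPM in KD4, 97.8, 96.6 and 104 CPM in OE and 98.1, 106 and 109 CPM in EV. The lowest library of the other lines held 2.08 times the highest shScr library, and the 4 other line means lay within 1.21-fold of each other. Dsg2 (ENSMUSG00000044393), a desmosomal cadherin, had 45.6, 36.1 and 40.8 CPM in shScr, against 57.1, 70.1 and 61.1 CPM in KD6, 75.5, 64.4 and 56.0 CPM in KD4, 70.8, 74.6 and 80.7 CPM in OE and 61.2, 70.1 and 75.5 CPM in EV, which is 1.54-fold between shScr and the nearest line. Of the other 15 measured genes in the list of desmosome, tight junction and adherens junction proteins, 3 were lower and 2 higher in shScr than in the mean of the other 4 lines by limma at an adjusted p under 0.05, where 6.85% of all 13142 genes were lower and 3.96% higher. The median log2 difference of these 15 was -0.03, against -0.01 over all genes. These shares and this median over all genes are the background for every list below. All lists were chosen with earlier results of these data known.

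The 3 that were lower all belong to the desmosome. Whether desmosome genes differ as a set was not tested, and 8 of the 15 had the lower mean in shScr. Of the 2 that were higher only Cgn is named, because at most 4 genes a list were named by p. Dsc2, the partner cadherin of Dsg2, had 10.2, 10.7 and 8.01 CPM in shScr, against 14.1, 12.8 and 14.2 CPM in KD6, 18.2, 21.3 and 22.1 CPM in KD4, 17.4, 15.8 and 18.4 CPM in OE and 17.0, 15.9 and 17.7 CPM in EV (log2 difference -0.76, SE 0.08, adjusted p = 6.44e-05). It missed the 1.5-fold minimum only against KD6. Jup, plakoglobin, which links the cadherins to the cytoskeleton, had 61.7 ± 5.17 CPM in shScr, against 89.4 ± 9.32 in KD6, 67.3 ± 8.61 in KD4, 99.8 ± 9.28 in OE and 92.4 ± 12.7 in EV (log2 difference -0.47, adjusted p = 0.00467). Pkp2, plakophilin, had 45.9 ± 2.61 CPM in shScr, against 49.5 ± 3.28 in KD6, 59.1 ± 2.53 in KD4, 51.4 ± 0.81 in OE and 52.7 ± 1.56 in EV (log2 difference -0.21, adjusted p = 0.0150). KD4 overlapped shScr for Jup and KD6 did for Pkp2, so in neither gene did shScr stand alone. Cgn, cingulin of tight junctions, went the other way in this contrast, yet its levels were mixed among the lines, with 9.29 ± 0.474 CPM in shScr, against 2.31 ± 1.04 in KD6, 12.6 ± 1.49 in KD4, 3.62 ± 1.74 in OE and 3.85 ± 2.15 in EV (log2 difference 0.92, adjusted p = 0.0259). Without shScr replicate 1, 2 or 3 Cgn no longer passed (adjusted p = 0.114, 0.0791 and 0.0796), and neither did Pkp2 without replicate 1 or 3 (adjusted p = 0.110 and 0.0582).

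The spectrin and actin skeleton under the plasma membrane was represented by 2 genes that were both lowest in shScr. Add3 (ENSMUSG00000025026), gamma-adducin, which caps actin filaments and ties them to spectrin, was the most extreme of all 58 at 11.1-fold. It had 0.569, 0.0775 and 0.538 CPM in shScr, against 4.31, 6.06 and 2.78 CPM in KD6, 6.29, 13.6 and 5.12 CPM in KD4, 3.94, 6.29 and 6.08 CPM in OE and 3.59, 5.44 and 4.69 CPM in EV. Its level was thus under 1 CPM in every shScr library and low in the others. Epb41l4b (ENSMUSG00000028434), a FERM-domain protein of the band 4.1 family, had 2.30, 1.38 and 1.246 CPM in shScr, against 5.94, 5.06 and 5.59 CPM in KD6, 7.80, 6.31 and 8.91 CPM in KD4, 5.72, 8.78 and 6.96 CPM in OE and 4.70, 7.41 and 6.64 CPM in EV. Of the other 15 measured membrane skeleton and FERM genes 1 was lower and 1 higher (median log2 difference -0.03), and the 1 that was lower was another adducin, Add2, with 1.81 ± 0.336 CPM in shScr, against 4.14 ± 0.707 in KD6, 2.25 ± 0.389 in KD4, 3.45 ± 0.889 in OE and 3.69 ± 0.533 in EV (log2 difference -0.62, SE 0.13, adjusted p = 0.00631). KD4 overlapped shScr for Add2. Without shScr replicate 2 its adjusted p was 0.0528. The 1 that was higher was Epb41l4a, in the opposite direction to Epb41l4b. It had 3.31 ± 0.589 CPM in shScr, against 2.37 ± 0.152 in KD6, 2.55 ± 0.362 in KD4, 2.43 ± 0.16 in OE and 2.52 ± 0.078 in EV (log2 difference 0.31, adjusted p = 0.0365 by limma). Epb41l4a did not pass without shScr replicate 1 or 2 (adjusted p = 0.248 and 0.0705).

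Other genes of cell shape and movement that were lowest in shScr were not on that list. Shroom2, an actin-binding protein that shapes the cell apex, had 1.204, 0.465 and 0.156 CPM in shScr, against 2.35, 3.56 and 4.78 CPM in KD6, 1.81, 1.73 and 1.69 CPM in KD4, 2.74, 3.46 and 10.1 CPM in OE and 1.91, 2.703 and 2.11 CPM in EV. Baiap2l1, which links membranes to actin, had 7.26, 6.04 and 7.62 CPM in shScr, against 10.5 to 13.8 CPM (median 12.03) in the other 12 libraries. Csrp1, a LIM-domain protein of actin bundles, had 102, 122 and 99.6 CPM in shScr, against 151 to 241 CPM (median 187) in the other 12 libraries. Elmo1, which works with Dock proteins to activate Rac, had 2.13, 1.498 and 1.71 CPM in shScr, against 2.96 to 8.80 CPM (median 5.59) in the other 12 libraries. Mapre2, a microtubule plus-end binding protein, had 34.5, 32.0 and 31.4 CPM in shScr, against 46.9 to 65.5 CPM (median 55.4) in the other 12 libraries. Dynlrb1, a dynein light chain, had 32.6, 34.2 and 29.0 CPM in shScr, against 45.2 to 58.8 CPM (median 51.3) in the other 12 libraries. By the fit, 6.85% of all genes were lower in shScr and 3.96% higher. In the list of actin bundling and stress fibre proteins, which holds none of the 58, 5 of 19 genes were lower in shScr and none was higher (median log2 difference -0.12). Tpm1, a tropomyosin, was one of them, with 241 ± 16.3 CPM in shScr, against 309 ± 29.1 in KD6, 395 ± 35.0 in KD4, 273 ± 11.3 in OE and 279 ± 22.1 in EV (log2 difference -0.37, adjusted p = 0.00356).

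Genes of secreted and matrix proteins were also among the 58. Mmp10 (ENSMUSG00000047562), stromelysin-2, a matrix metalloprotease, had 3.98, 3.20 and 4.16 CPM in shScr, against 13.1, 7.76 and 11.7 CPM in KD6, 8.90, 7.395 and 12.7 CPM in KD4, 8.48, 11.5 and 6.45 CPM in OE and 6.93, 12.9 and 6.81 CPM in EV. The 12 libraries outside shScr lay between 6.45 and 13.1 CPM. Mgp, matrix Gla protein, an inhibitor of calcification, had 3.35, 4.95 and 3.39 CPM in shScr, against 12.03, 11.7 and 12.7 CPM in KD6, 5.81, 11.5 and 8.52 CPM in KD4, 9.46, 6.99 and 8.98 CPM in OE and 14.02, 6.62 and 9.45 CPM in EV. Ccn3, a matricellular protein, had 1.12, 1.06 and 1.21 CPM in shScr, against 1.99 to 7.06 CPM (median 3.41) in the other 12 libraries. Adamtsl3, a matrix protein related to the ADAMTS proteases without their catalytic part, had 9.18, 11.5 and 9.23 CPM in shScr, against 15.5 to 21.6 CPM (median 17.8) in the other 12 libraries.

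Adamts8 (ENSMUSG00000031994), a secreted metalloprotease, was the most extreme of the genes highest in shScr, at 3.603-fold. It had 5.60, 4.92 and 5.71 CPM in shScr, against 1.32, 1.17 and 2.01 CPM in KD6, 0.809, 1.045 and 1.44 CPM in KD4, 2.05, 1.46 and 0.797 CPM in OE and 1.15, 1.62 and 1.07 CPM in EV, so it was listed at low levels in the other lines. Of the other 22 measured matrix proteases and inhibitors 7 were lower in shScr by the fit and none was higher (median log2 difference -0.10). Over all genes 6.85% were lower and 3.96% higher. Mmp14, a membrane-bound metalloprotease, had 43.6 ± 2.01 CPM in shScr, against 50.3 ± 1.74 in KD6, 60.6 ± 1.00 in KD4, 64.2 ± 3.26 in OE and 61.3 ± 2.83 in EV (log2 difference -0.42, SE 0.05, adjusted p = 5.92e-05). The plasminogen activators Plau, with 125 ± 8.95 CPM in shScr, against 154 ± 9.12 in KD6, 172 ± 12.4 in KD4, 163 ± 14.3 in OE and 175 ± 13.5 in EV, and Plat, with 40.2 ± 4.56 CPM in shScr, against 60.5 ± 8.97 in KD6, 53.1 ± 5.17 in KD4, 54.8 ± 5.59 in OE and 60.3 ± 7.77 in EV, had log2 differences of -0.40 and -0.49 (adjusted p = 0.00167 and 0.00634). Mmp13, a collagenase, was listed at low levels, with 1.59 ± 0.367 CPM in shScr, against 3.13 ± 0.672 in KD6, 2.13 ± 0.234 in KD4, 2.53 ± 0.155 in OE and 2.91 ± 0.073 in EV (log2 difference -0.50, adjusted p = 0.00613). Plat without shScr replicate 1 and Mmp13 without replicate 3 no longer passed (adjusted p = 0.0633 and 0.0522). None of these 4 reached 1.5-fold from every line. In the extracellular matrix list, 6 of the 22 genes other than Mgp were lower and 3 higher, among them Lamb3, a laminin chain, with 80.6 ± 6.17 CPM in shScr, against 49.5 ± 8.46 in KD6, 59.7 ± 9.31 in KD4, 30.7 ± 4.95 in OE and 31.2 ± 5.47 in EV (log2 difference 0.97, adjusted p = 0.000231).

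The promoter of Mmp10 is shown because it was the only one of these genes whose promoter held the letters of the AP-1 motif, for which matrix metalloprotease genes are known. Promoters are 250 bases before to 50 after each RefSeq start in GRCm38.p6, and 56 promoters of 41 of the 58 genes were found by symbol. In the stretch at chr9:7502254-7502341, plus strand, capitals mark the AP-1 letters at 63 bases before the start and the TATA box at 29 bases before it.
Mmp10: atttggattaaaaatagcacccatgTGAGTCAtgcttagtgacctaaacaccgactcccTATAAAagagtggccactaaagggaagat

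Across all 56 promoters, searched on both strands, TGANTCA (AP-1) was in 1 (1.79%), against 5.06% of the 9886 promoters of measured genes with at least 5 CPM. TATAAA (the TATA box) was in 6 (10.7%), against 6.81%, CACGTG (the E-box) in 5 (8.93%), against 10.6%, and GGGCGG (the GC box) in 38 (67.9%), against 65.8%. The 4 motifs were counted separately, so a base could count for more than 1 of them. The median GC content was 62.3%, against 61.7%. The E-box stretches of 4 genes lowest in shScr are shown for comparison, with the 6 letters in capitals. They lie at chr19:53140193-53140240 (plus strand) for Add3, chr17:87265990-87266045 (minus strand) for Mcfd2, chr1:152766333-152766388 (minus strand) for Rgl1 and chr16:4939032-4939087 (plus strand) for Nudt16l1, each written along its gene.
Add3: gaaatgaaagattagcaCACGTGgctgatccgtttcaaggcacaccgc
Mcfd2: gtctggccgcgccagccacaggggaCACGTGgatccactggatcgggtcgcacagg
Rgl1: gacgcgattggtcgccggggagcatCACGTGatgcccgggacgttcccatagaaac
Nudt16l1: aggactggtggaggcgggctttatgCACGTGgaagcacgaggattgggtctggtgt
The matches lie at 233, 73, 58 and 54 bases before the start in the order of these lines, and a match says only that the letters are present.

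**Figure D2:**
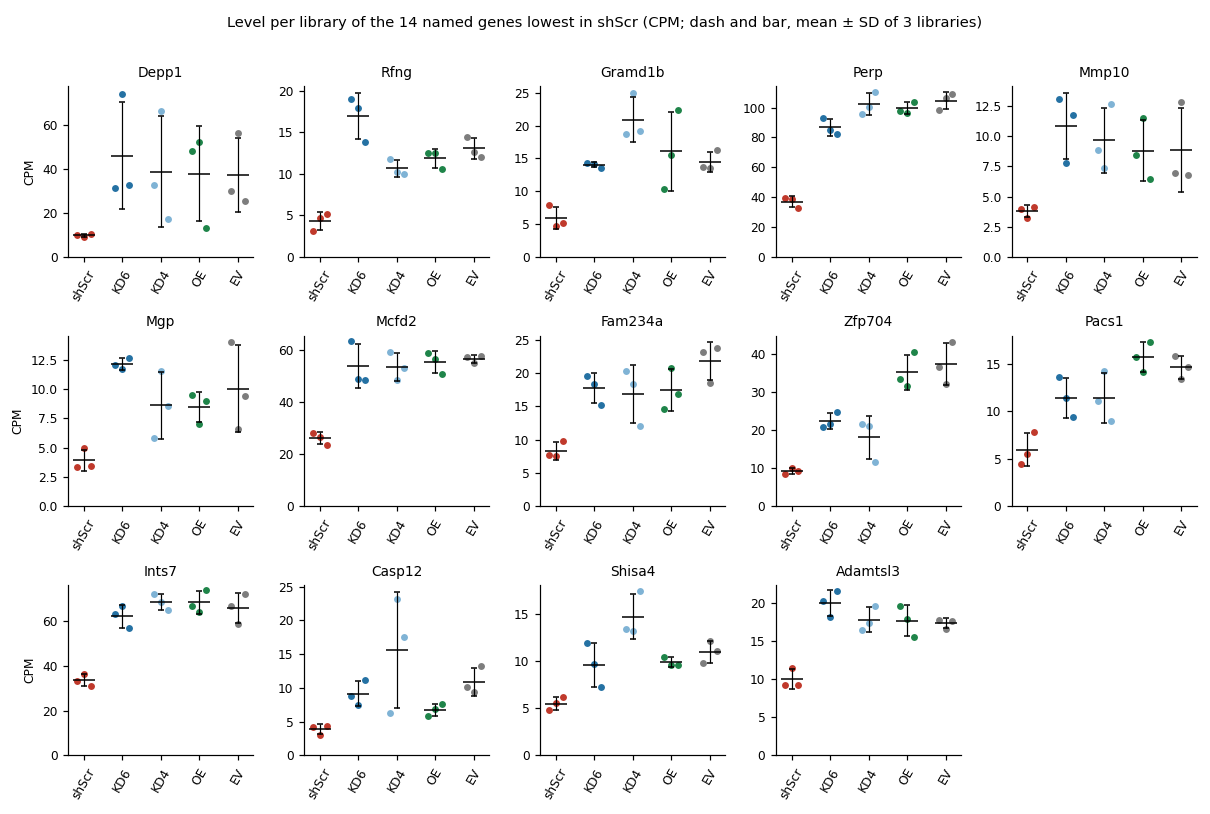
CPM per library, on linear axes that each begin at 0, of the 14 genes with at least 10 CPM that lay furthest below the other lines in shScr; points are libraries, and the dash and bar are mean ± SD of 3. The 3 shScr points lie below all 12 others in every panel. For Depp1 they have an SD of 0.794 CPM, while its other 12 libraries range 5.62-fold.

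Signalling through Notch depends on sugars that Fringe enzymes add to the receptor and on ligases that pull the ligand into the cell, and 1 gene of each kind was among the 58, in opposite directions. Rfng (ENSMUSG00000025158), radical fringe, was lowest in shScr, with 3.16, 4.65 and 5.12 CPM in shScr, against 19.1, 18.0 and 13.9 CPM in KD6, 11.8, 10.3 and 9.92 CPM in KD4, 12.4, 12.5 and 10.5 CPM in OE and 14.5, 12.6 and 12.1 CPM in EV. Neurl1b (ENSMUSG00000034413), a ubiquitin ligase of Notch ligands, was highest in shScr, with 13.4, 15.2 and 18.7 CPM in shScr, against 5.18, 6.62 and 5.48 CPM in KD6, 5.16, 4.96 and 3.98 CPM in KD4, 7.88, 6.35 and 7.22 CPM in OE and 7.08, 6.33 and 6.76 CPM in EV. For Neurl1b the lowest shScr library was 1.70 times the highest of the others. Of the other 28 measured Notch pathway genes 2 were lower in shScr and none was higher (median log2 difference -0.03). Mib1, another ligase of Notch ligands, had 185 ± 8.46 CPM in shScr, against 241 ± 11.5 in KD6, 199 ± 3.34 in KD4, 244 ± 10.3 in OE and 233 ± 7.28 in EV (log2 difference -0.30, adjusted p = 0.000601). Maml1, a coactivator of Notch, had 27.8 ± 2.36 CPM in shScr, against 34.2 ± 5.46 in KD6, 43.9 ± 7.82 in KD4, 42.8 ± 2.33 in OE and 37.2 ± 1.29 in EV (log2 difference -0.48, adjusted p = 0.00531). Wnt7b, a secreted Wnt ligand, was also lowest in shScr, with 21.6, 25.2 and 27.8 CPM in shScr, against 38.5 to 66.2 CPM (median 52.9) in the other 12 libraries.

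Il2rg (ENSMUSG00000031304), the common gamma chain shared by receptors for several interleukins, was the most abundant of the genes highest in shScr. It had 55.7, 49.8 and 47.3 CPM in shScr, against 24.9, 22.4 and 21.7 CPM in KD6, 24.4, 26.5 and 34.3 CPM in KD4, 20.7, 23.4 and 19.5 CPM in OE and 23.7, 23.7 and 24.4 CPM in EV. The 4 other lines lay within 1.34-fold of each other, and the shScr mean was 2.11 times the mean of the 4. Of the other 28 measured cytokine receptor and JAK-STAT genes 2 were higher and 2 lower in shScr (median log2 difference -0.04). Il18rap, an interleukin-18 receptor chain, had 11.3 ± 0.921 CPM in shScr, against 6.32 ± 0.596 in KD6, 6.63 ± 1.71 in KD4, 8.06 ± 0.861 in OE and 8.68 ± 2.07 in EV (log2 difference 0.56, adjusted p = 0.0129). Socs2, a feedback inhibitor of cytokine signalling, had 11.05 ± 1.12 CPM in shScr, against 7.82 ± 1.054 in KD6, 7.71 ± 0.413 in KD4, 8.18 ± 0.74 in OE and 8.43 ± 0.916 in EV (log2 difference 0.42, adjusted p = 0.00787). Il13ra1, an interleukin-13 receptor chain, had 54.4 ± 2.03 CPM in shScr, against 73.8 ± 2.21 in KD6, 60.3 ± 3.14 in KD4, 71.0 ± 4.91 in OE and 70.1 ± 1.77 in EV (log2 difference -0.33, adjusted p = 0.000769). Without shScr replicate 1 neither Il18rap nor Socs2 passed (adjusted p = 0.0850 and 0.0666), and Il18rap did not without replicate 3 (adjusted p = 0.0523).

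Among genes of the secretory path and of lipids, Mcfd2 (ENSMUSG00000024150), which carries clotting factors from the endoplasmic reticulum to the Golgi, had 28.2, 26.5 and 23.6 CPM in shScr, against 63.5, 49.0 and 48.6 CPM in KD6, 59.3, 48.6 and 53.05 CPM in KD4, 59.0, 56.6 and 50.9 CPM in OE and 57.3, 55.0 and 57.7 CPM in EV. The other 4 lines were almost level for Mcfd2, within 1.06-fold. Gramd1b, which moves cholesterol to the endoplasmic reticulum, had 7.89, 4.69 and 5.20 CPM in shScr, against 10.4 to 24.9 CPM (median 14.9) in the other 12 libraries. B4galt6, which makes lactosylceramide, had 2.93, 2.17 and 2.58 CPM in shScr, against 5.54 to 9.56 CPM (median 7.02) in the other 12 libraries. Pacs1, a sorting protein of the trans-Golgi, had 4.47, 5.46 and 7.87 CPM in shScr, against 8.95 to 17.3 CPM (median 13.9) in the other 12 libraries. Dnm1, the dynamin that severs endocytic vesicles, had 6.66, 4.70 and 7.34 CPM in shScr, against 8.51 to 16.1 CPM (median 12.4) in the other 12 libraries. Cpt1a, which lets fatty acids into mitochondria for oxidation, had 25.3, 23.8 and 26.0 CPM in shScr, against 37.9 to 49.7 CPM (median 44.1) in the other 12 libraries. Gch1, the first enzyme of tetrahydrobiopterin synthesis, had 10.3, 7.83 and 8.24 CPM in shScr, against 12.7 to 18.8 CPM (median 16.6) in the other 12 libraries.

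Among the 58 were also single genes of RNA processing and stress, for which no list was examined. Ints7 (ENSMUSG00000037461), a subunit of the Integrator complex that cleaves nascent RNA, had 33.4, 36.3 and 31.2 CPM in shScr, against 63.1, 66.8 and 56.8 CPM in KD6, 72.2, 68.7 and 64.8 CPM in KD4, 67.0, 64.3 and 74.1 CPM in OE and 66.6, 58.9 and 71.999 CPM in EV, and the other 4 line means lay within 1.10-fold. Tsen34, a subunit of the endonuclease that splices transfer RNA, had 8.36, 9.90 and 9.93 CPM in shScr, against 13.2 to 20.3 CPM (median 17.1) in the other 12 libraries. Depp1 (ENSMUSG00000048489), a regulator of autophagy, had 9.98, 8.94 and 10.5 CPM in shScr, against 31.3, 74.3 and 32.6 CPM in KD6, 32.6, 66.5 and 17.3 CPM in KD4, 48.1, 52.3 and 13.2 CPM in OE and 30.0, 56.5 and 25.2 CPM in EV. Its shScr libraries were alike and its other 12 libraries ranged 5.62-fold, so the distance of shScr from the others was uneven. Casp12, a caspase of the endoplasmic reticulum, had 4.27, 2.99 and 4.28 CPM in shScr, against 5.81 to 23.1 CPM (median 9.07) in the other 12 libraries, with the 2 highest libraries both of KD4. Hspb7, a small heat shock protein, had 0.011, 1.12 and 0.869 CPM in shScr, against 3.12, 1.56 and 1.82 CPM in KD6, 4.26, 2.13 and 1.46 CPM in KD4, 14.4, 2.50 and 3.24 CPM in OE and 9.65, 2.18 and 2.703 CPM in EV, and the first replicates of OE and EV stood above the rest.

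Several genes highest in shScr were of low level and varied role. Ogdhl, an enzyme related to oxoglutarate dehydrogenase, had 4.50, 6.01 and 8.07 CPM in shScr, against 0.774 to 3.34 CPM (median 2.04) in the other 12 libraries. Zfp979, a zinc finger gene, had 13.03, 15.2 and 11.8 CPM in shScr, against 4.15 to 6.77 CPM (median 5.50) in the other 12 libraries. Mal, a membrane protein of lipid rafts, had 8.31, 5.91 and 4.78 CPM in shScr, against 1.02 to 4.001 CPM (median 2.11) in the other 12 libraries. Cpne8, a copine that binds membranes with calcium, had 8.41, 9.91 and 8.91 CPM in shScr, against 3.59 to 5.55 CPM (median 4.34) in the other 12 libraries. Lrp11 had 19.3, 14.9 and 16.9 CPM in shScr, against 8.24 to 12.6 CPM (median 9.94) in the other 12 libraries. Kbtbd8, an adaptor of a cullin ubiquitin ligase, had 10.9, 11.7 and 11.02 CPM in shScr, against 5.47 to 7.87 CPM (median 6.98) in the other 12 libraries. Nudt8, Kcnab2 and P3h2 had shScr means of 6.30 CPM, 7.85 CPM and 7.84 CPM, at 1.62, 1.55 and 1.51-fold above the nearest line. The remaining 3 have no symbol here and are ENSMUSG00000104339, ENSMUSG00000114996 and ENSMUSG00000114501, with shScr means of 7.53 CPM, 11.3 CPM and 5.20 CPM.

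**Figure D3:**
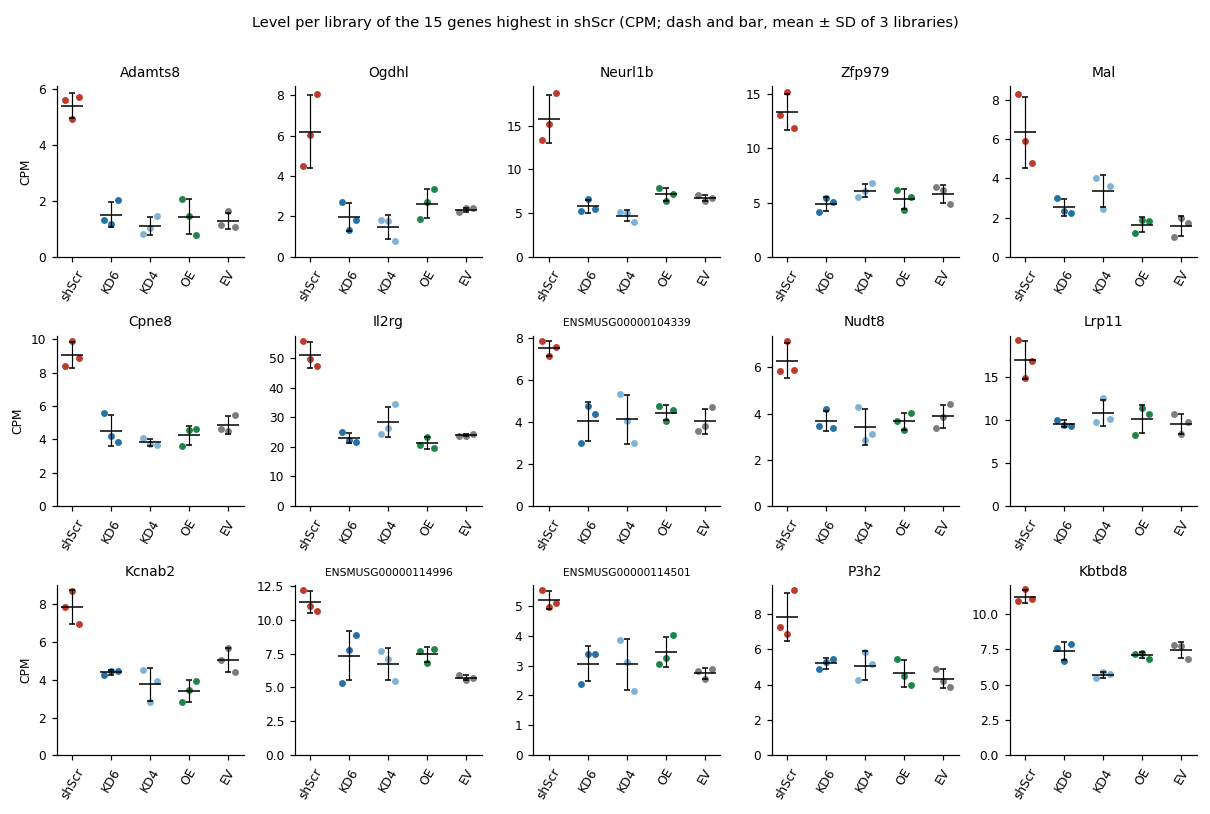
CPM per library, on linear axes that each begin at 0, of the 15 genes that lay above the other lines in shScr; points are libraries, and the dash and bar are mean ± SD of 3. The 3 shScr points lie above all 12 others in every panel, with the widest gap as a ratio for Adamts8 (5.41 against at most 1.501 CPM as line means) and the highest level for Il2rg (50.9 CPM).

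The 43 lower genes summed to 641 CPM in shScr, against 1260 CPM in the mean of the other 4 lines, and the 15 higher genes to 181 CPM against 89.5 CPM. The fold to the nearest line ran between 1.502 and 11.1 in the lower genes (median 1.76) and between 1.502 and 3.603 in the higher ones (median 1.69). It was at least 2-fold in 16 lower genes and 4 higher ones. The genes were of low to middling level: the highest line mean had a median of 14.7 CPM, against 36.9 CPM over all 10689 genes with at least 5 CPM, and 11 genes reached 50 CPM in a line. In 3 genes (Add3, Hspb7 and Shroom2) the shScr mean was under 1 CPM.

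The remaining genes lowest in shScr can be given in brief by role. In signalling, Gnaq, a G protein alpha subunit, had 19.7 CPM in shScr at 1.57-fold below the nearest line, Rgl1, an exchange factor of Ral, had 1.71 CPM at 2.54-fold, Dusp19, a phosphatase, had 2.96 CPM at 1.86-fold, and Stk40, a kinase-like protein, had 57.5 CPM at 1.51-fold. In modification of proteins, Qpct, which forms pyroglutamate, had 5.24 CPM at 1.53-fold, and Mid2, a ubiquitin ligase on microtubules, had 11.5 CPM at 1.66-fold. The zinc finger genes Zfp704 and Zfp651 had 9.31 CPM at 1.94-fold and 7.19 CPM at 1.57-fold. Membrane proteins were Tspan2, a tetraspanin (2.18 CPM, 1.77-fold), Shisa4 (5.46 CPM, 1.75-fold) and Fam234a (8.33 CPM, 2.03-fold). Lgalsl, a galectin-like protein, had 3.34 CPM at 1.53-fold, BC031353 had 11.3 CPM at 1.66-fold and Nudt16l1 had 6.63 CPM at 1.502-fold.

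The thresholds cut through a continuous range. Just inside the fold minimum were Nudt16l1 at 1.502-fold and Kbtbd8, also at 1.502-fold, and just outside were Car13 at 1.496-fold and Neat1 at 1.493-fold. Neat1, a long noncoding RNA, had 296 CPM in shScr, 198 CPM in KD4, its nearest line, and 187 CPM in KD6. Just inside the level minimum were ENSMUSG00000114501 at 5.20 CPM and Adamts8 at 5.41 CPM in the highest line, and just outside were Dcun1d4 and Nobox, both at 4.94 CPM. There were 30 genes that failed on level alone and 23 that failed on overlap alone.

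**Figure D4:**
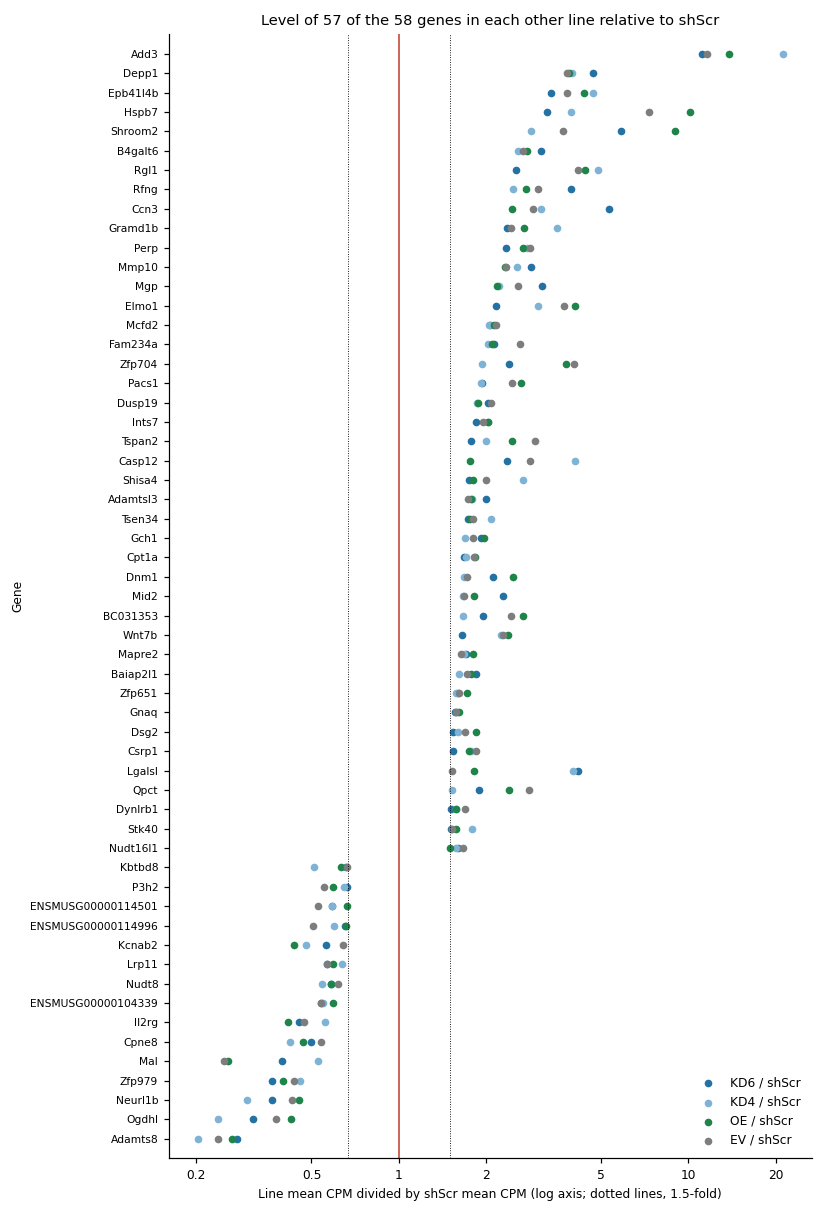
Mean CPM of KD6, KD4, OE and EV divided by the mean CPM of shScr (log axis) for 57 of the 58 genes, lowest in shScr at the top; the red line marks the shScr level and dotted lines mark 1.5-fold. All 4 dots of a gene lie on the same side; they sit close together for Ints7, Mcfd2 and Gnaq and apart for Hspb7, Lgalsl and Mal.

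The other lines did not form a single level in every gene. Their means lay within 1.2-fold of each other in 18 of the 58 genes, and spanned at least 2-fold in 7. In the lower genes the line nearest to shScr was a KD hairpin line in 34 of 43 and a vector line in 9, and in the higher genes a KD hairpin line in 6 of 15 and a vector line in 9. The median ratio to shScr over the 43 lower genes was 2.03 in KD6, 2.03 in KD4, 2.13 in OE and 2.28 in EV, and over the 15 higher genes 0.538, 0.527, 0.469 and 0.528. These are descriptions over genes of one set, which are not replicates, by values that the rule used. How often a KD hairpin line was nearest to shScr over all genes was not counted.

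Differences among the other 4 lines were not themselves a criterion of the rule, and they were tested. The rule did set bounds on where each of these lines lay relative to shScr. The counts of the 58 that passed below are therefore not independent of the choice. KD hairpin lines (KD6 and KD4) against vector lines (OE and EV) was fitted with limma over the 12 libraries, in which 18.3% of all 13142 genes and 20.3% of the 10689 with at least 5 CPM passed at an adjusted p under 0.05. Of the 58 genes 11 passed (19.0%), 3 higher and 8 lower in the KD hairpin lines, which is near the share of all genes. The shared drug and hairpin of KD6 and KD4 cannot be told apart from the reduction of Smarcd1 in this comparison.

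Lgalsl had the widest of these differences. It had 15.7, 13.9 and 11.9 CPM in KD6 and 11.9, 20.5 and 7.62 CPM in KD4, against 4.61, 3.87 and 9.73 CPM in OE and 5.37, 4.40 and 5.60 CPM in EV (log2 difference 1.14, SE 0.23, adjusted p = 0.00515), with shScr at 3.34 ± 0.116 CPM. Thus among the hairpin lines Lgalsl was high in the 2 that target Smarcd1 and lowest of all lines in shScr. Zfp704 had 20.8, 21.7 and 24.8 CPM in KD6 and 21.5, 21.1 and 11.6 CPM in KD4, against 33.6, 31.6 and 40.5 CPM in OE and 36.8, 32.2 and 43.2 CPM in EV (log2 difference -0.84, SE 0.14, adjusted p = 0.00196), with shScr at 9.31 ± 0.819 CPM. The KD hairpin lines of Zfp704 thus lay between shScr and the vector lines, without overlap of the 12 libraries.

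Qpct was likewise lower in the KD hairpin lines, with 9.96 ± 2.34 CPM in KD6 and 7.998 ± 0.918 in KD4, against 12.6 ± 1.27 in OE and 14.7 ± 0.581 in EV (log2 difference -0.57, SE 0.10, adjusted p = 0.00279), and shScr at 5.24 ± 0.557 CPM. Mal, highest in shScr, was also higher in the KD hairpin lines than in the vector lines, with 2.51 ± 0.418 CPM in KD6 and 3.34 ± 0.826 in KD4, against 1.63 ± 0.371 in OE and 1.58 ± 0.501 in EV (log2 difference 0.59, SE 0.13, adjusted p = 0.00968). Its 3 hairpin lines therefore all stood above its vector lines, and shScr most. Neurl1b, in contrast, was lower in the KD hairpin lines, with 5.76 ± 0.758 CPM in KD6 and 4.70 ± 0.63 in KD4, against 7.15 ± 0.767 in OE and 6.73 ± 0.375 in EV (log2 difference -0.36, SE 0.08, adjusted p = 0.0119), while shScr was highest. Ccn3 was higher in the KD hairpin lines, with 6.03 ± 1.22 CPM in KD6 and 3.51 ± 0.585 in KD4, against 2.78 ± 0.811 in OE and 3.29 ± 0.284 in EV (log2 difference 0.48, SE 0.12, adjusted p = 0.0170), while shScr was lowest. The other 5 that passed, Tspan2, Elmo1, Pacs1, BC031353 and Wnt7b, had log2 differences between -0.50 and -0.27. The number that passed was 6 without KD6 replicate 3 or EV replicate 3, and 7 without OE replicate 2, OE replicate 3 or EV replicate 1.

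KD6 against KD4 called 5.87% of all genes and 6.63% of those with at least 5 CPM, and 2 of the 58 (3.45%). Rfng was higher in KD6, at 17.0 ± 2.73 CPM in KD6, against 10.7 ± 1.01 CPM in KD4 (log2 difference 0.62, SE 0.12, adjusted p = 0.0122). Shisa4 was lower in KD6, at 9.56 ± 2.34 CPM in KD6, against 14.6 ± 2.38 CPM in KD4 (log2 difference -0.58, SE 0.15, adjusted p = 0.0482). In both genes the 2 lines stayed on the same side of shScr. Rfng did not pass without KD6 replicate 2 (adjusted p = 0.0589), and Shisa4 did not in 11 of the 12 fits that left out 1 library, with adjusted p between 0.0527 and 0.147. OE against EV called no gene by limma (0%) at an adjusted p under 0.05, with 661 genes (5.03%) at an unadjusted p under 0.05. Of the 58, 3 had such an unadjusted p, with values of 15.3, 15.9 and 15.2 CPM in OE against 8.51, 10.8 and 12.7 CPM in EV for Dnm1, and log2 differences of 0.51 for Dnm1, -0.46 for Kcnab2 and 0.83 for Shroom2 (adjusted p = 0.785 each).

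The comparison these genes touch is the one of KD (KD6 and KD4 as 1 group of 6 libraries) with shScr, made here in the gene table of these lines. Its gene values can be higher or lower than the transcript sums. Add3 had 1.44 CPM in shScr against a sum of 0.395, and Depp1 had 31.7 CPM in KD6 against a sum of 46.0. There 364 of 13669 genes passed (2.66%), 267 higher and 97 lower in KD. Of these 364 calls, 54 (14.8%) were among the 58 genes. The rule used the same libraries and the same contrast, so that count follows from the choice and nothing is read from it. Across all 15 libraries, shScr against the mean of the other 4 lines called 1420 genes (10.8%). Leaving out 1 shScr library lowered the KD calls to between 92 and 102 and those among the 58 to 32 or 33, leaving out KD6 replicate 1 or KD4 replicate 2 gave 229 and 181 calls, and the calls of shScr against the other 4 lines were 638, 802 and 851 without shScr replicate 1, 2 and 3.

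The values of Perp and Il2rg given next are transcript sums and not those of the gene table. For Perp, KD had 93.1, 84.9, 82.2, 95.8, 101 and 110.3 CPM, against 39.4, 38.5 and 32.8 CPM in shScr, and the vector lines lay between 96.6 and 109 CPM. For Il2rg, KD had 24.9, 22.4, 21.7, 24.4, 26.5 and 34.3 CPM, against 55.7, 49.8 and 47.3 CPM in shScr, and the vector lines lay between 19.5 and 24.4 CPM. In both genes the range of the vector lines overlapped that of KD. The 4 genes not called in KD against shScr were Hspb7, Nudt16l1, Pacs1 and Shroom2.

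All 58 genes were listed in both gene tables, and 27 of them had line means there within 5% of the transcript sums in every line. In 49 of the 58 the hairpin lines of the gene table also met the thresholds, among shScr, KD6 and KD4 alone. In 6 genes a line mean differed over 1.5-fold between the tables: Add3, Depp1, Shroom2, Rgl1, Gramd1b and Nudt16l1. Add3 had 1.44 CPM in shScr, 5.61 in KD6 and 8.98 in KD4 in the gene table, against 0.395 CPM as a transcript sum in shScr, so its 11.1-fold distance became 3.89-fold there. Shroom2 overlapped KD4 in the gene table, at 1.78 CPM in shScr, 4.24 in KD6 and 2.19 in KD4, and Pacs1 overlapped too. Nudt16l1 came to 1.16-fold. BC031353, Wnt7b, Lrp11 and Kbtbd8 also missed the fold minimum there, at 1.34, 1.49, 1.46 and 1.46-fold. Hspb7 and Tspan2 missed the level minimum, with their highest means of the hairpin lines at 2.62 and 4.36 CPM, both in KD4. Depp1, Gramd1b and Rgl1 were still apart in the gene table, at 2.64, 1.85 and 1.57-fold.

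The 58 genes had 101 transcripts in the table, with 34 genes holding 1 and 24 holding 2 to 5. Of the transcripts 57 met the same fold and separation thresholds, with no minimum level, in the direction of their gene and none in the opposite one. The genes were chosen by the sums of these values, so the shared direction follows largely from the choice. Of the 24 genes with several transcripts, all of the transcripts did so in 1 gene, some in 17 and none in 6. The share of a gene that a transcript took was read as an estimate, since short reads divide unsurely among transcripts.

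Rfng showed the largest such contrast together with Depp1. Its transcript ENSMUST00000026156 had 1.052, 1.41 and 2.703 CPM in shScr, against 17.9, 15.97 and 11.8 CPM in KD6, 9.65, 8.30 and 9.10 CPM in KD4, 10.4, 11.4 and 7.97 CPM in OE and 13.2, 11.6 and 10.7 CPM in EV. The other transcript, ENSMUST00000123273, had 2.10, 3.24 and 2.42 CPM in shScr, against 0.819 to 2.57 CPM in the other 12 libraries, so its levels overlapped. Its share of Rfng was 61.2% ± 12.2 in shScr, against 10.7% ± 4.54 in KD6, 15.2% ± 6.02 in KD4, 16.6% ± 7.77 in OE and 9.26% ± 1.56 in EV (SD, n = 3 each). The lower level of Rfng in shScr thus lay in 1 of its 2 listed transcripts.

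Mcfd2 had 3 transcripts, of which ENSMUST00000024963 was low in shScr (3.86, 9.39 and 11.1 CPM, against 21.0 to 48.0 CPM in the others), while ENSMUST00000144236 overlapped (23.5, 16.2 and 11.9 CPM, against 8.17 to 32.3 CPM). For Depp1 the transcript ENSMUST00000178241 took 76.6% ± 22.7 of the gene in shScr, against 23.3% ± 13.99 in KD6, 12.7% ± 18.2 in KD4, 20.6% ± 14.8 in OE and 54.5% ± 39.8 in EV, and the spread within EV was as wide as the difference. Dusp19 and Nudt16l1 differed in share by -14.6 and 24.1 percentage points from the mean of the other lines, and BC031353, whose 5 transcripts each overlapped, by -24.1 points.

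**Figure D5:**
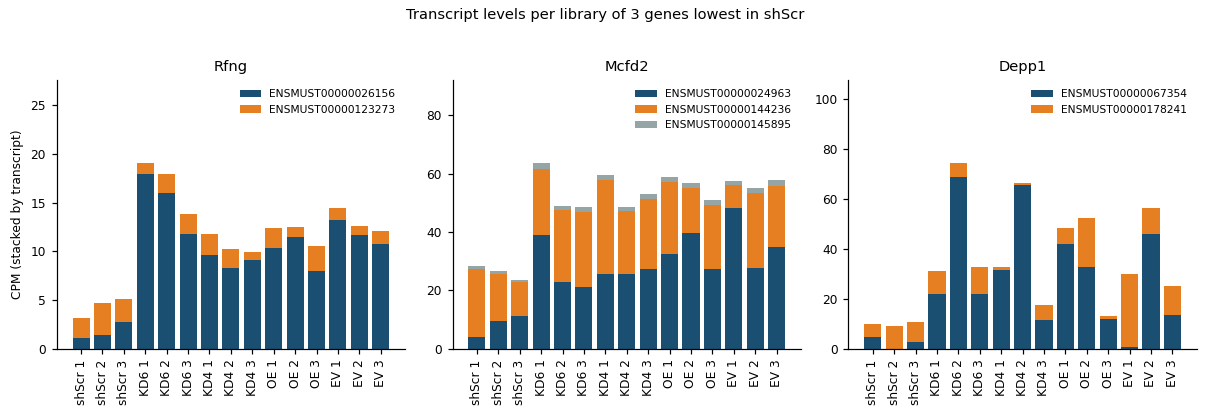
CPM of each listed transcript (stacked bars, linear axis from 0) in each of the 15 libraries for Rfng, Mcfd2 and Depp1. In shScr the lower, dark block of Rfng is at most 2.703 CPM and that of Mcfd2 at most 11.1 CPM, while the second block of each overlaps between shScr and the other lines.

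With RefSeq gene order, 11293 genes were placed. Among them were 54 of the 58, on 18 chromosomes with at most 5 on one (chromosomes 4, 9 and 19). Among the placed genes with at least 5 CPM, no 2 of the 54 were next to each other. However, 9 of the 54 had another of the 58 within 5 such genes on either side, as Dsg2, B4galt6 and Mapre2 did on chromosome 18. Whether 9 is more than for other sets of genes was not tested. The median log2 difference of shScr minus the mean of the other lines was taken over the 5 genes of at least 5 CPM on each side. Any of the 58 among these neighbours were left out. This median was -0.02 beside the lower genes and -0.02 beside the higher ones, against -0.02 over all genes with at least 5 CPM. Across the 54 neighbourhoods this median ran between -0.22 and 0.14, while the genes themselves differed by at least 0.60 in size.

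For the other lists that hold none of the 58 genes, counts of genes lower and higher in shScr were 7 and 0 of 22 for proliferation, 5 and 1 of 28 for interferon-stimulated genes, 3 and 0 of 26 for the BAF complex, 3 and 1 of 19 for glutathione and NRF2 targets, 2 and 1 of 8 for drug efflux transporters, 1 and 2 of 13 for RNA interference, 1 and 0 of 17 for replication histones, 0 and 1 of 17 for semaphorins, and 0 and 0 of 12 for mitochondrially encoded genes. Over all genes 6.85% were lower and 3.96% higher. Of the 21 p53 targets other than Perp, 1 was lower and none higher. That 1 was Btg2, an antiproliferative gene, whose levels separated the hairpin from the vector lines, with 22.9 ± 1.27 CPM in shScr, against 15.5 ± 3.21 in KD6, 20.6 ± 1.91 in KD4, 50.8 ± 3.77 in OE and 56.6 ± 4.16 in EV (log2 difference -0.42, adjusted p = 0.0128). Btg2 did not pass without shScr replicate 1 or 2 (adjusted p = 0.0840 and 0.0519). The mitochondrially encoded sum was 26542 to 34589 CPM in shScr, against 27411 to 45130 CPM in the other 12 libraries. Mesenchymal markers had 1 lower gene of 8, Fn1, and the adipocyte markers had Lpl lower (adjusted p = 0.0434 and 0.00684), while luminal, basal, fibroblast, immune and endothelial markers had none. Fn1 did not pass in 12 of the 15 fits that left out 1 library (adjusted p between 0.0503 and 0.217), nor Lpl without shScr replicate 3 (adjusted p = 0.0549). The summed level of the proliferation list did not overlap, at 1597 to 1676 CPM in shScr, against 1706 to 1829 CPM in the other 12 libraries, and 20 of its 22 genes had the lower mean in shScr. It was 1 of 24 lists looked at. The 5.27% of genes in which shScr lay outside the others refers to single genes and is no background for a sum. How often sums of other sets of genes do so was not counted. In the limma fit, Plk1 and Mcm5 of this list did not pass without shScr replicate 1 (adjusted p = 0.0925 and 0.124). Neither did Ccna2 and Rrm2 without replicate 3 (adjusted p = 0.054 and 0.173). The summed level was 688 to 765 CPM for the luminal markers in shScr, against 655 to 958 CPM, and 42.2 to 49.2 CPM for the immune markers, against 37.1 to 80.3 CPM. The part of these in the 58 genes was not tested.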

How the data were processed

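Messenger RNA was sequenced in 15 libraries, 3 for each of 5 lines, from RNA with an integrity number over 7, and replicates were separate passages plated on successive days. The deposited files held CPM that the authors calculated from fractional read counts, in 1 transcript table of 30220 transcripts and 2 gene tables. STAR 2.7.8a and mm39 are named in the labels, whereas the study's methods name Tophat and an earlier build. Which of them made the values is open, and no coordinate was taken from the files. The values held no zero and no whole-read steps, so depth is unknown. Another 15 columns of the transcript table matched no label and were not used.

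CPM was summed per gene over the transcripts listed, for 13142 genes, of which 87.6% had a symbol in the name table. The rule was applied to these sums. Tests used log2(CPM + 1), a pseudocount of 1 that understates the change of low genes, with limma 3.58.1 (intensity trend) in R 4.3.3, with Benjamini-Hochberg adjustment over every gene in a fit. KD hairpin against vector lines, KD6 against KD4 and OE against EV were fitted over the 12 libraries outside shScr. shScr against the other 4 lines was fitted over all 15, and KD against shScr, with KD6 and KD4 as 1 group, over 9 libraries of the gene table. The members and the 24 gene lists (17 pathway and 7 marker lists) were chosen with earlier results of these data known. Genes named were the members with a symbol and at least 10 CPM (up to 14 a side by fold), those on a list, those at the thresholds, up to 6 that passed per comparison, up to 6 with the largest transcript share difference, and up to 4 other genes a list by p; other members are given in brief and were named after their values were seen. The values of 1 of the 58 genes are not reported here. Promoters and gene order came from RefSeq, GRCm38.p6, by symbol. The limma step was tested on simulated data. Alternatives were a pseudocount of 0.1, a minimum mean of 5 CPM, median-of-ratios scaling, quantile normalization, a replicate block, other tables, other thresholds of the rule and leaving out each library. Tables and figures were made with pandas 2.3.3 and matplotlib 3.10.9 in Python 3.11.15.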

Additional observations from a re-analysis of the deposited data

Results flagged for a closer look

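Of the 58 genes, 2 differed between the lines KD6 and KD4, which share the shScr libraries as their control, by a direct test of KD6 against KD4 in limma. Rfng had a log2 difference of 0.62 (KD6 minus KD4), with all 3 KD6 libraries above the 3 of KD4. Shisa4 had a log2 difference of -0.58, and the highest KD6 library lay below the lowest of KD4. With 3 libraries a line, no single library was tested for standing apart from its group.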

How the results depend on the processing

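The number of genes where only shScr differs was 58 after median-of-ratios scaling (57 shared), 39 with a minimum of 10 CPM, 20 at 2-fold and 112 in the gene tables of the 3 hairpin lines alone (49 shared). Leaving out each of the 15 libraries gave 52 to 72 genes, and 39 of the 58 were found each time. Leave-one-out counts were 1599 to 2543 for KD hairpin lines against vector lines (6 to 11 of the 58), 387 to 723 for KD6 against KD4 (1 to 4 of the 58), 0 for OE against EV, 638 to 1669 for shScr against the other 4 lines, and 92 to 397 for KD against shScr (32 to 54 of the 58). A line with 1 library left out keeps 2. For KD6 against KD4, 5 of the 58 passed with quantile normalization, in the fit of all 15 libraries and in the gene table, where Rfng did not (adjusted p = 0.0684). OE against EV called 1 gene in the gene table. The causes were not tested.

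Replicate numbers do not pair the libraries: libraries of the same number in 2 lines had a correlation of deviations with a median of -0.21, and 1 of 30 was over 0.1. For libraries of different numbers the median was 0.07, with values between -0.30 (OE replicate 3 and EV replicate 2) and 0.41 (KD6 replicate 1 and KD4 replicate 3). Whether libraries pair across lines under other numbers was not tested, and the replicate block used the numbers as given. With a replicate block the counts were 1464 for KD hairpin lines against vector lines, 371 for KD6 against KD4 (1 of the 58), 725 for shScr against the other 4 lines and 114 for KD against shScr, and 18 tested differences of single genes, Shisa4 among them, no longer passed. Over 1138 alternative values for single genes no sign was reversed. Without read totals, the precision of the low levels, such as Add3 in shScr, cannot be given.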
